A study of Mus musculus with 6 samples.

Results

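The genes described here act in mitosis and at the centrosome. They are 35 genes of kinetochores, spindles, condensin, centrioles, the machinery of mitotic entry and exit, and cytokinesis. They were chosen by name, with earlier results of these data known. All rows used here carry chromosome numbers 1 to 4, so genes of other chromosomes are not covered. Each gene's brightest transcript cluster was taken, and a mean signal at or above the 30th percentile of the table was required. All 35 had a cluster and passed that filter, out of 7659 genes with a value and 5361 tested genes, and each had exactly 1 cluster. The lowest mean signal among them was that of Cenpl, at log2 5.93 in siDicer cells and 5.85 in siScr cells, against the filter at log2 4.15.

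RNA came from Melan-a cells, an immortalised pigmented melanocyte line from C57BL/6 mice, a single line rather than melanocytes of several animals. Cells were transfected with siDicer, a small interfering RNA against the microRNA-processing ribonuclease Dicer, or with the control siRNA siScr, and 3 Clariom D arrays were run per group. Both groups grew in serum with 200 nM of the phorbol ester TPA, and both received lipid reagent, magnetic particles and 50 pmol of siRNA per well. Replicates 1, 2 and 3 of each group came from passages 47, 54 and 56, so that each passage held 1 siDicer and 1 siScr array. The titles give 48 h without naming its starting point, and the treatment protocol describes lysis 24 h after a medium change made at 6 h.

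Dividing cells must attach every chromosome to the spindle through its kinetochore, a protein layer built on the centromere, and a checkpoint holds back anaphase until attachment is complete. Condensin compacts the chromosomes, centrioles duplicate to give each spindle pole its centrosome, and the anaphase-promoting complex then destroys cyclins and securin before cytokinesis divides the cell. Most of these genes are transcribed mainly in the G2 phase and in mitosis, through CCAAT boxes bound by NF-Y and through the cell cycle genes homology region (CHR) bound by MuvB complexes with B-MYB and FOXM1. Their summed RNA in a culture therefore follows both how many cells are in these phases and how much RNA each such cell holds, and on these bulk arrays fewer such cells and less RNA per cell cannot be told apart.

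Promoter windows of 300 bases, from 250 before to 50 after the transcript start, were available from RefSeq (GRCm38.p6) for 32 of the 35 genes and not for Ccna2, Smc4 and Tpx2. Both strands were searched for CCAAT. The letters taken for the CHR, likewise on both strands, were TTTGAA and its variant TTCGAA. Matches of the box and of the region were counted separately, so that a base could belong to both. CCAAT was present in 26 of the 32 genes (81.2%), against 40.0% of 3376 other tested genes and 41.1% of all 27025 genes with a window. CHR letters were present in 24 of the 32 (75.0%), against 16.6% of the other tested genes and 21.7% of all genes with a window. Both motifs stood together in 22 (68.8%), against 8.15% and 9.65%, and 2 or more CCAAT in 16 (50.0%), against 14.0% and 13.3%. These are matches of letters in a window and do not show binding.

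Windows of 5 genes are printed 5′ to 3′ on the gene's own strand, with every matched CCAAT and CHR motif in capitals. Cdc20 shows both motifs close together. Cenpe and Hjurp had the smallest p-values between siDicer and siScr. Smc2 had the largest difference between passages 56 and 47, and Nusap1 the smallest p-value for passage.
Cdc20 (chr4:118437294-118437593, minus strand): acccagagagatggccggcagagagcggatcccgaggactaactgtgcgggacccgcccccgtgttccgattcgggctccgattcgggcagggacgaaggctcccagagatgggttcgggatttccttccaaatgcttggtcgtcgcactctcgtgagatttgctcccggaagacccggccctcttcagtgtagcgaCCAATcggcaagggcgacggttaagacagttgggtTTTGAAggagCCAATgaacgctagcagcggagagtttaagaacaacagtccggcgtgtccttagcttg
Cenpe (chr3:135212313-135212612, plus strand): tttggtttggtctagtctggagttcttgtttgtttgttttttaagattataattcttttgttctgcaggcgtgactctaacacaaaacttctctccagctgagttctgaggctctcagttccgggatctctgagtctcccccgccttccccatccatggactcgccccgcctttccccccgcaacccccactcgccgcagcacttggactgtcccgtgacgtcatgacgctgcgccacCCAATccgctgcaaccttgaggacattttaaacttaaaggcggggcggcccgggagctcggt
Hjurp (chr1:88277530-88277829, minus strand): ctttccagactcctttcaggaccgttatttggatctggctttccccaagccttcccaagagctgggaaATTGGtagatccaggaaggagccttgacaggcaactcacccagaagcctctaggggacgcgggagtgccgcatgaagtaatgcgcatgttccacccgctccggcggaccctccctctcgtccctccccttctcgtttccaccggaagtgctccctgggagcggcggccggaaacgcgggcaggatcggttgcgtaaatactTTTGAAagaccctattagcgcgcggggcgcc
Smc2 (chr4:52438971-52439270, plus strand): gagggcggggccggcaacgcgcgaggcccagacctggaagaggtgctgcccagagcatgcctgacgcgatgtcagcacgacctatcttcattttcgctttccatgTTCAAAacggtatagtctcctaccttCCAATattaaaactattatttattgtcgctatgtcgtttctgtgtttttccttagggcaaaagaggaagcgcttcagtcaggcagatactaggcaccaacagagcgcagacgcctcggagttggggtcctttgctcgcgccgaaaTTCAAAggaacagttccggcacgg
Nusap1 (chr2:119618048-119618347, plus strand): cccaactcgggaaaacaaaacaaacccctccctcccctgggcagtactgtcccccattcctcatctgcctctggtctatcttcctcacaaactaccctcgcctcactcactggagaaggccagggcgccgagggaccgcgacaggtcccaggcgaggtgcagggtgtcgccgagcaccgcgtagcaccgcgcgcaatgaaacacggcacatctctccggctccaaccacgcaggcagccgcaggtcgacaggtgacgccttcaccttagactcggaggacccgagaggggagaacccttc
Counting the start site as 0, Cdc20 had CCAAT at -53 and -8 with CHR letters between them at -18. Cenpe had CCAAT at -12 and no CHR letters in the window. Hjurp had CCAAT at -182 and CHR letters at 19, and Smc2 had CCAAT at -119 with CHR letters at -145 and 26. Nusap1 held neither motif. Its start, at 119618298 on the plus strand of chromosome 2, lies 207 bp before that of Oip5, at 119618505 on the minus strand, so the 5′ ends of the 2 genes overlap on opposite strands. The Oip5 window had CCAAT at -163, -112, -80 and -29 and CHR letters at 33.

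The 6 arrays had median log2 signals of 4.63 to 4.68, and any 2 of them correlated at 0.993 to 0.997. The rows used here carry chromosome numbers 1 to 4 only. A listed marker without a value had no single-gene row to read, which does not show that its RNA was absent. Of 17 listed melanocyte markers 3 had a value, and all were bright: Tyrp1 averaged 12.81 in siDicer and 12.86 in siScr cells, Slc24a5 10.59 in siDicer and 10.85 in siScr cells, and Pax3 10.48 in siDicer and 10.60 in siScr cells. The summed log2 levels of these markers ran from 33.31 to 34.31 on siDicer arrays and from 33.72 to 34.83 on siScr arrays. Keratinocyte markers (7 with a value, 3 above the filter) summed to between 30.67 and 31.33 on siDicer and between 30.39 and 31.44 on siScr arrays, with genes from 2.53 (Sprr3) to 6.90 (Flg). Leukocyte markers (8 with a value, 6 above the filter) summed to between 34.89 and 35.32 on siDicer and between 34.71 and 35.83 on siScr arrays, with genes from 2.84 (Ptprc) to 5.69 (Spi1). Fibroblast markers (6 with a value, 4 above the filter) summed to between 28.89 and 30.23 on siDicer and between 29.24 and 30.09 on siScr arrays, with genes from 3.91 (Prrx1) to 6.32 (Col3a1). The lists differ in their number of genes, so their sums can be compared between arrays but not between lists. The ranges of the groups overlapped for each list. Within passages, however, the melanocyte sum was lower in siDicer each time, with differences of -0.53, -0.41 and -0.32 at passages 47, 54 and 56. Slc24a5 (-0.30, -0.22 and -0.24) and Pax3 (-0.12, -0.094 and -0.14) were lower in every pair and Tyrp1 (-0.11, -0.088 and 0.052) in 2 of 3, and none of them passed (limma, adjusted p from 0.782 to 0.93, and from 0.14 to 0.852 with passage as a block). The other sums did not keep 1 sign over the passages. The part of these markers in the siRNA differences was not tested. Dicer1 was not analysed here, so the knockdown was not checked.

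Between siDicer and siScr, no gene of mitosis or the centrosome passed the test. With limma, 0 of the 35 had an adjusted p under 0.05, where 1 of all 5361 tested genes did (0.0187%). At an unadjusted limma p under 0.05 there were 2 of the 35, Cenpe lower and Hjurp higher in siDicer, beside 8.52% of all tested genes. That count was 0 without siDicer replicate 1, 1 without siScr replicate 1 or siScr replicate 2, and 5 without siScr replicate 3. The siDicer minus siScr difference ran from -0.39 (Cenpe) to 0.21 (Iqgap3) on the log2 scale, with a median of 0.055 over the 35 and of -0.0093 over all tested genes. It was above 0 in 26 of the 35 and below 0 in 9, where 45.5% of all tested genes were above 0. The count of 26 became 14 without siDicer replicate 3 and 14 without siScr replicate 1, with medians of -0.024 and -0.054, and 31 without siScr replicate 3, with a median of 0.129. In 0 of the 35 were all siDicer arrays above all siScr arrays (6.68% of tested genes) and in 0 were they all below (7.82%).

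**Figure D1:**
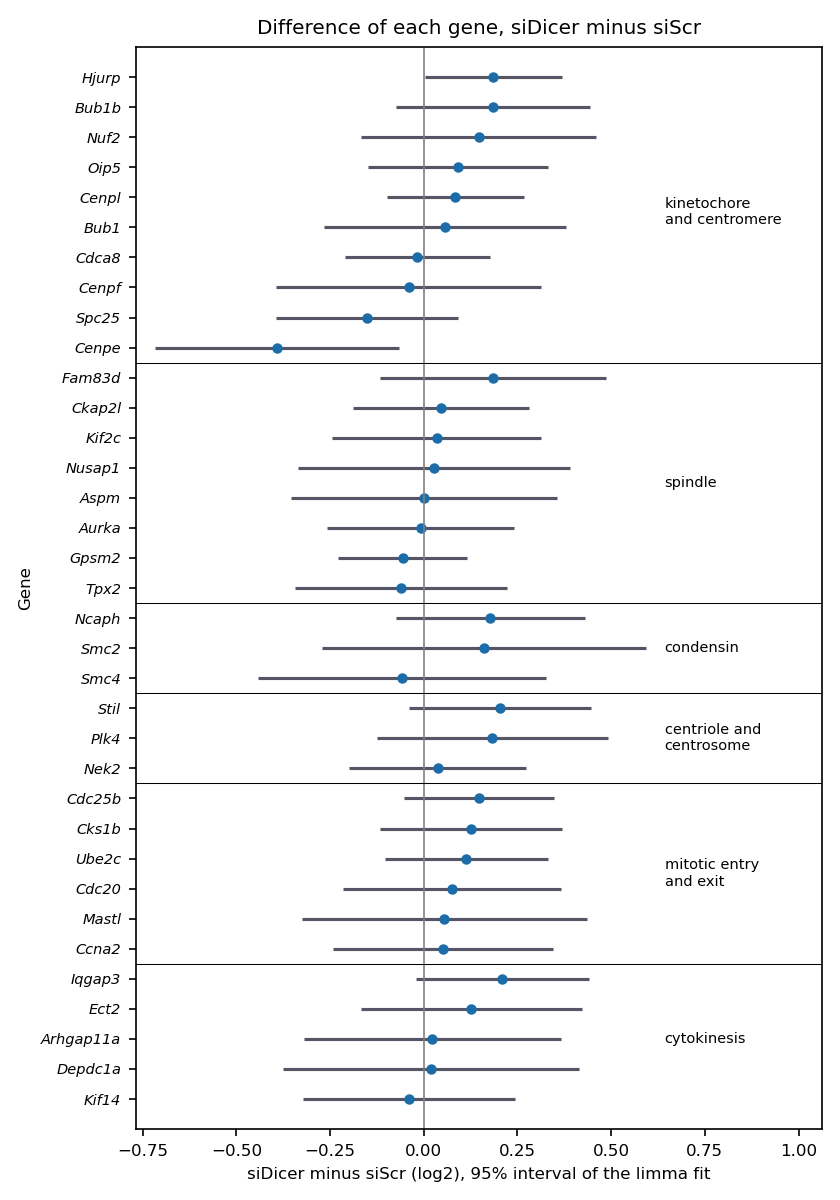
Difference of each of the 35 genes between siDicer and siScr in log2 signal (x axis), by gene and role (y axis). Points are limma estimates from 3 arrays per group and bars are 95% intervals of the fit without passage as a block. Only the intervals of Cenpe, on the negative side, and Hjurp, on the positive side, lie clear of 0. Neither gene passed after adjustment over all tested genes. With passage as a block the standard error of each gene was smaller, for Cenpe 0.080 against 0.141 and for Hjurp 0.072 against 0.079.

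With passage as a replicate block, which compares the groups within each passage, again 0 of the 35 passed (limma, adjusted p from 0.0719 upward, median difference 0.055), beside 93 of all tested genes (1.73%). Unadjusted limma p-values under 0.05 were found for 6 of the 35, namely Cenpe and Spc25 lower and Hjurp, Bub1b, Stil and Iqgap3 higher, against 13.8% of all tested genes. That count was 1 without passage 47 and 8 without passage 54 or passage 56. Higher in siDicer at all 3 passages were 10 of 35, beside 16.1% of tested genes: Hjurp, Bub1b, Cenpl, Oip5, Ncaph, Stil, Cdc25b, Cks1b, Ube2c and Iqgap3. Lower at all 3 passages were 2 of 35, Cenpe and Spc25, beside 20.0% of tested genes.

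Cenpe, the kinesin motor that carries chromosomes along microtubules to the metaphase plate, differed most. Its log2 signals were 7.96, 8.21 and 8.40 in siDicer cells at passages 47, 54 and 56, against 8.34, 8.78 and 8.62 in siScr cells. Each siDicer array was below the siScr array of its own passage, although the siDicer array of passage 56 was above the siScr array of passage 47. The difference was -0.39, with a 95% interval of -0.72 to -0.066 and a standard error of 0.141, and did not pass (limma, adjusted p = 0.468), and the same difference with passage as a block had an adjusted p of 0.0719 (limma). Over single arrays left out it ranged from -0.51 to -0.28. With the block and without passage 56 it was -0.48 and passed (limma, adjusted p = 0.0205), where 153 of all tested genes did. With the block and without passage 47 or passage 54 it was -0.40 and -0.30 and did not pass (limma, adjusted p = 0.306 and 0.315). Each of these fits rests on the pairs of the remaining passages only.

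Hjurp, the chaperone that deposits the centromeric histone Cenpa, had signals of 8.77, 8.64 and 8.76 in siDicer and 8.43, 8.53 and 8.65 in siScr cells at passages 47, 54 and 56. Its siDicer arrays exceeded the siScr array of the same passage each time, and the groups met only between siDicer at passage 54 and siScr at passage 56. The difference of 0.19 had a standard error of 0.0792 and did not pass (limma, adjusted p = 0.577). Oip5, a subunit of the Mis18 complex that licenses the same deposition step, had 6.64, 6.85 and 7.02 in siDicer against 6.64, 6.78 and 6.82 in siScr cells. Cenpl, a constitutive centromere protein, had 5.90, 5.87 and 6.03 in siDicer against 5.80, 5.76 and 5.98 in siScr cells. For these 2 genes the within-passage differences were between 0.0036 and 0.204, all above 0, and the groups overlapped.

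Among the kinetochore's microtubule-binding and checkpoint proteins the direction was mixed. Spc25 and Nuf2 are subunits of the Ndc80 complex, which grips microtubule ends. Spc25 had 6.65, 6.74 and 6.99 in siDicer cells against 6.82, 6.95 and 7.07 in siScr cells. Nuf2 had 8.04, 8.15 and 8.45 in siDicer against 7.82, 8.16 and 8.22 in siScr cells. So the 2 subunits of 1 complex lay on opposite sides of 0, with differences of -0.15 (standard error 0.105) and 0.15 (standard error 0.136), and neither passed (limma, adjusted p = 0.754 and 0.847). The checkpoint kinase Bub1 had 8.03, 8.15 and 8.45 in siDicer against 7.89, 8.27 and 8.29 in siScr cells. The related checkpoint protein Bub1b had 8.27, 8.28 and 8.49 in siDicer against 7.93, 8.25 and 8.30 in siScr cells. Bub1b thus exceeded its siScr partner each time, by 0.334 at passage 47 and by only 0.0281 at passage 54, while Bub1 was below its partner at passage 54. Cenpf, a large microtubule-binding protein of the outer kinetochore, and Cdca8, the borealin subunit of the chromosomal passenger complex, differed by -0.041 and -0.017.

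The spindle genes lay closest to 0 among the role groups with more than 3 members, with a median difference of 0.014 over 8 genes, 5 above and 3 below 0. Aurka, the kinase of spindle poles, had 8.34, 8.39 and 8.48 in siDicer against 8.19, 8.45 and 8.60 in siScr cells. Tpx2, which activates Aurka on microtubules, had 9.09, 9.14 and 9.32 in siDicer against 8.99, 9.30 and 9.44 in siScr cells. Both were higher in siDicer at passage 47 and lower at the later passages. Fam83d, which brings casein kinase to the spindle, had the largest difference of the group at 0.18 (standard error 0.131, limma, adjusted p = 0.762). Its signals were 7.17, 7.21 and 7.24 in siDicer against 6.80, 6.93 and 7.34 in siScr cells, so the siDicer arrays were nearly level while the siScr arrays were spread widely. The microtubule depolymerase Kif2c, the microtubule-bundling protein Nusap1, the spindle protein Ckap2l, the spindle-pole protein Aspm and the spindle-orienting adaptor Gpsm2 differed by 0.034, 0.027, 0.047, 0.00022 and -0.057, all within their standard errors, which ran from 0.075 for Gpsm2 to 0.157 for Nusap1.

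Condensin was represented by its ATPase pair Smc2 and Smc4 and by Ncaph, the kleisin subunit of condensin I that closes the ring. Smc2 had 8.17, 8.48 and 8.72 in siDicer cells against 7.92, 8.56 and 8.42 in siScr cells. Smc4 had 8.69, 9.13 and 9.22 in siDicer against 8.88, 9.36 and 8.97 in siScr cells. Ncaph had 8.35, 8.31 and 8.54 in siDicer against 8.01, 8.28 and 8.37 in siScr cells. On the siScr arrays Smc2 and Smc4 were highest at passage 54 and Ncaph at passage 56, whereas on the siDicer arrays all 3 were highest at passage 56. Differences were 0.16 (standard error 0.188), -0.059 (standard error 0.167) and 0.18 (standard error 0.109), and none passed by limma (adjusted p = 0.879, 0.963 and 0.729). The groups overlapped for each of the 3.

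At the centrosome, Plk4, the kinase that starts centriole duplication, had 7.33, 7.46 and 7.65 in siDicer against 7.05, 7.54 and 7.30 in siScr cells. Stil, the Plk4 partner that builds the new centriole, had 7.48, 7.48 and 7.68 in siDicer against 7.15, 7.39 and 7.50 in siScr cells. Nek2, a kinase that separates centrosomes, had 7.38, 7.46 and 7.61 in siDicer against 7.25, 7.52 and 7.58 in siScr cells. Stil exceeded its siScr partner at each passage, and Plk4 and Nek2 did so at passages 47 and 56. The differences were 0.18, 0.20 and 0.037, with standard errors of 0.133, 0.105 and 0.102 (limma, adjusted p = 0.768, 0.663 and 0.963).

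All 6 genes of mitotic entry and exit had a difference above 0, between 0.052 and 0.148, and none passed. Cdc25b, the phosphatase that activates cyclin-dependent kinase at mitotic entry, had 7.99, 7.82 and 7.99 in siDicer against 7.72, 7.71 and 7.93 in siScr cells. Cks1b, a small subunit of that kinase, had 8.43, 8.57 and 8.69 in siDicer against 8.25, 8.53 and 8.54 in siScr cells. Ube2c, the ubiquitin-conjugating enzyme of the anaphase-promoting complex, had 9.43, 9.38 and 9.48 in siDicer against 9.13, 9.34 and 9.47 in siScr cells. In these 3 genes the siDicer array exceeded its partner at every passage, with the groups overlapping. Cdc20, the activator of the anaphase-promoting complex, had 7.59, 7.53 and 7.80 in siDicer against 7.34, 7.55 and 7.81 in siScr cells. Ccna2, the A-type cyclin of S phase and G2, had 9.33, 9.49 and 9.74 in siDicer against 9.26, 9.57 and 9.57 in siScr cells. Mastl, the Greatwall kinase that restrains protein phosphatase 2A, had 7.13, 7.35 and 7.66 in siDicer against 7.01, 7.46 and 7.49 in siScr cells. In Cdc20, Ccna2 and Mastl the siDicer array was lower at passage 54 and higher at passage 47.

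Of the genes of cytokinesis, Iqgap3, a scaffold protein of the IQGAP family, had the largest positive difference of all 35. It had 7.83, 7.71 and 7.89 in siDicer cells against 7.46, 7.55 and 7.80 in siScr cells, so that the difference was 0.21, its standard error 0.0998 and its limma adjusted p = 0.64. Only the siScr array of passage 56 reached into the siDicer range. Ect2, the guanine nucleotide exchange factor that places the cleavage furrow, had 9.18, 9.32 and 9.60 in siDicer against 9.03, 9.36 and 9.33 in siScr cells. Depdc1a had 7.27, 7.53 and 7.97 in siDicer against 7.37, 7.69 and 7.64 in siScr cells, the widest spread over siDicer arrays (SD 0.35) among the 35. Arhgap11a differed by 0.023 and the central-spindle kinesin Kif14 by -0.040.

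Set beside each other, kinetochore, spindle and condensin genes had median differences of 0.070 (6 of 10 above 0), 0.014 (5 of 8) and 0.160 (2 of 3), and each group held members on both sides of 0. The median of centriole and centrosome genes was 0.183 (3 of 3 above 0), that of mitotic entry and exit 0.095 (6 of 6) and that of cytokinesis 0.023 (4 of 5). With 1 array left out, the medians ran from -0.029 to 0.128 for kinetochore genes, from -0.093 to 0.098 for spindle genes and from -0.029 to 0.218 for condensin. The low ends came without siDicer replicate 3 for the kinetochore and without siScr replicate 1 for the spindle and condensin, and the high ends without siScr replicate 3. For centriole and centrosome genes the range was 0.060 (without siScr replicate 1) to 0.235 (without siDicer replicate 1). For mitotic entry and exit genes it was -0.0083 (without siScr replicate 1) to 0.184 (without siScr replicate 3), and for cytokinesis genes -0.086 (without siDicer replicate 3) to 0.179 (without siDicer replicate 1). The ranges of the 6 groups overlapped.

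Within passages, the median siDicer minus siScr difference over the 35 genes was 0.147 at passage 47, -0.079 at passage 54 and 0.097 at passage 56. At passage 47, 30 of the 35 were higher in siDicer (48.4% of all tested genes), at passage 54 there were 12 (49.2%), and at passage 56 there were 24 (44.5%). Kinetochore genes had medians of 0.115, -0.061 and 0.079 at passages 47, 54 and 56, spindle genes 0.162, -0.090 and -0.049, and condensin genes 0.250, -0.079 and 0.254. The sign at passage 54 was thus opposite to that at passage 47 in each of these groups, and spindle genes differed from the other groups in lying below 0 at passage 56. Each of these values compares 1 siDicer with 1 siScr array, so whether the difference varies with passage was not tested.

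**Figure D2:**
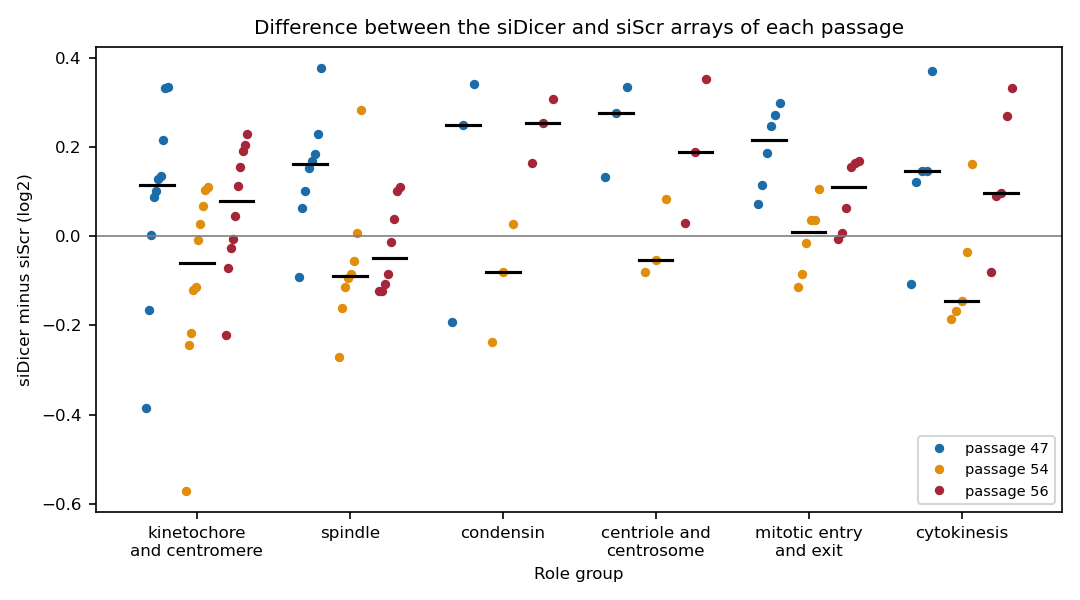
Difference between siDicer and siScr within each passage in log2 signal (y axis), by role group (x axis) and passage (colour). Each point is 1 gene and each black bar a group median; over all 35 genes medians were 0.147 at passage 47, -0.079 at passage 54 and 0.097 at passage 56.

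Averaged over both siRNAs, all 35 were higher at passage 56 than at passage 47, where 49.7% of all tested genes were. The median passage 56 minus 47 difference was 0.304 over the 35 and -0.00056 over all tested genes, and it ran from 0.10 (Hjurp) to 0.52 (Smc2). In 31 of the 35 both passage 56 arrays lay above both passage 47 arrays, beside 15.2% of tested genes; the exceptions were Hjurp, Iqgap3, Cdc25b and Plk4. Without siScr replicate 1 the count above 0 was 34 and the median 0.217, and under the other settings that give this value it stayed at 35 with medians from 0.282 to 0.377. For Cenpe, Hjurp, Iqgap3 and Cdc25b the siRNA difference was the larger in size (-0.39, 0.19, 0.21 and 0.15, against passage differences of 0.36, 0.10, 0.20 and 0.11), and for the other genes the passage difference was. The melanocyte marker sum averaged 34.57, 33.52 and 34.20 at passages 47, 54 and 56, and Slc24a5, at 11.05, 10.38 and 10.73, passed the test for passage (limma, adjusted p = 0.0244). Leukocyte markers summed to 35.40 at passage 56 and 34.80 at passage 47, and fibroblast markers to 29.07 at passage 56 and 29.77 at passage 47, and keratinocyte markers to 30.64 at passage 56 and 30.72 at passage 47. The part of these markers in the passage differences was not tested. The direction of passage 56 over 47 was chosen for description after the values were seen, and passage, culture day and transfection day cannot be told apart.

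**Figure D3:**
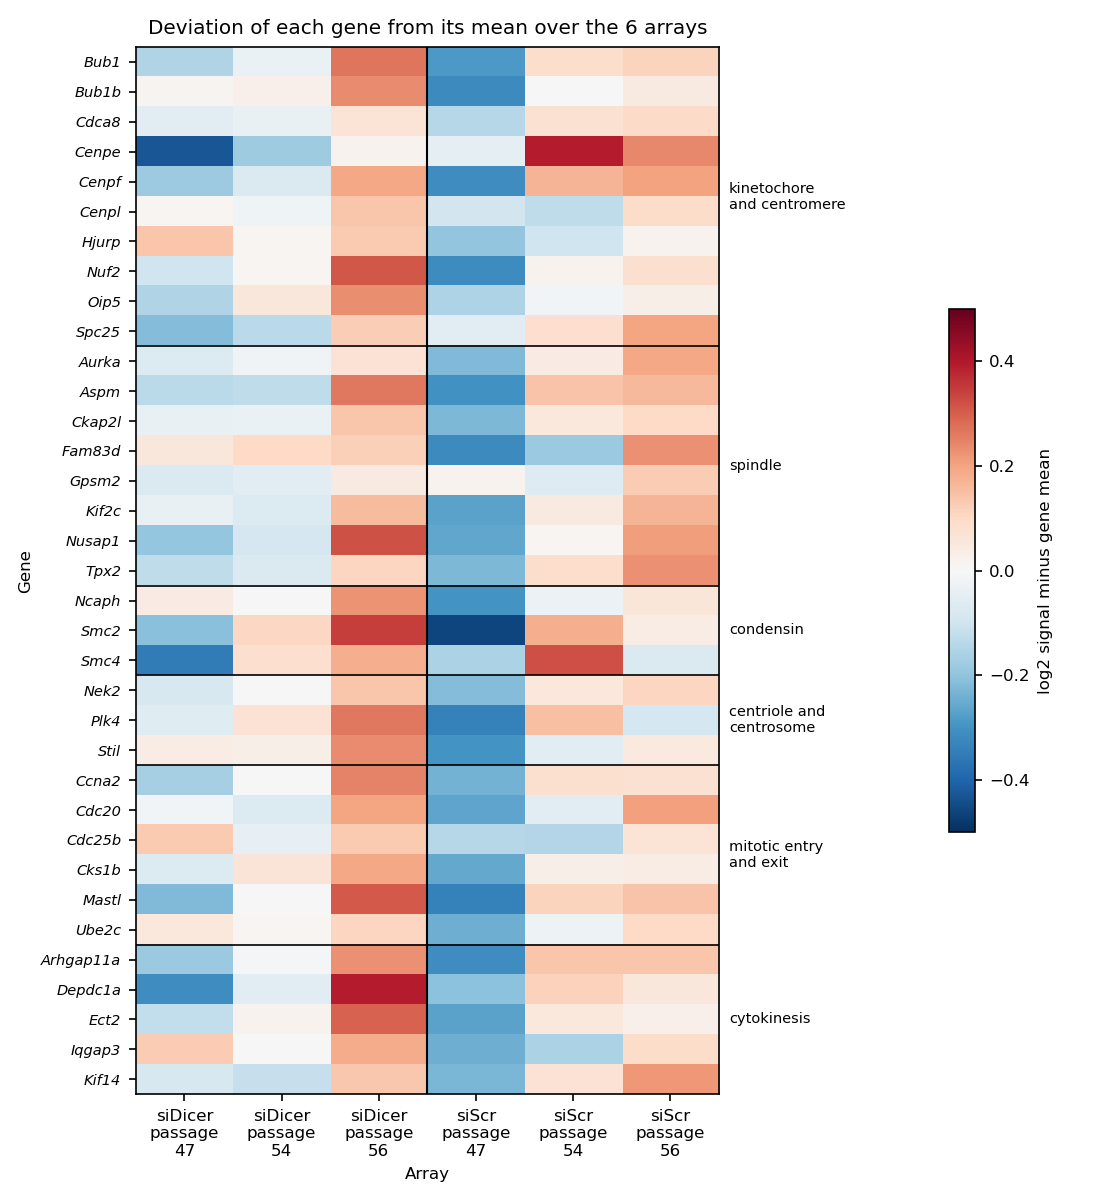
Deviation of each gene's log2 signal from its own mean over the 6 arrays (colour, red above and blue below), by gene (rows, grouped by role) and array (columns, siDicer left of siScr). The siScr array of passage 47 is the lowest of the 6 for 28 genes and the siDicer array of passage 56 the highest for 22.

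Tested over the 3 passages with the siRNA in the model, 0 of the 35 passed after adjustment (limma F-test, median passage 56 minus 47 difference 0.304), where 99 of all tested genes did (1.85%). At an unadjusted limma F-test p under 0.05 there were 25 of the 35, beside 16.1% of all tested genes. That count was 6 without siScr replicate 1, 6 without passage 47 in both groups and 15 without passage 56. The closest to the threshold were Nusap1, with 7.32, 7.43 and 7.84 in siDicer and 7.26, 7.53 and 7.72 in siScr cells (limma, adjusted p = 0.0605, difference 0.49), Mastl (limma, adjusted p = 0.0717, difference 0.50) and Smc2 (limma, adjusted p = 0.0825, difference 0.52). In Nusap1 and Mastl both arrays of passage 56 were above all arrays of the other passages. These 3 genes passed after median centring of the arrays (limma, adjusted p = 0.0319, 0.0381 and 0.041), where 202 of all tested genes did. They also passed when only genes above the 50th percentile were tested (limma, adjusted p = 0.0295, 0.0355 and 0.0395), where 172 genes did. With quantile normalisation, array weights, no variance trend or no filter on dim genes, 0 of the 35 passed.

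**Figure D4:**
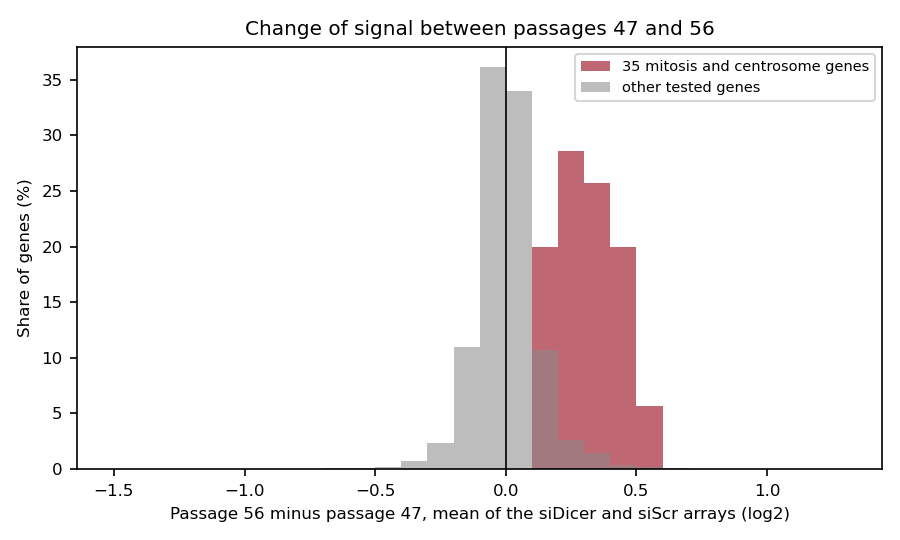
Distribution of the passage 56 minus passage 47 difference in log2 signal, averaged over both siRNAs (x axis), for the 35 genes (red) and for the other tested genes (grey), as a percentage of each set (y axis). The 35 lie between 0.10 and 0.52 with a median of 0.304, and the other tested genes have a median of -0.0012.

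Role groups shared the direction, with median passage 56 minus 47 differences of 0.294 for kinetochore, 0.310 for spindle, 0.308 for condensin, 0.274 for centriole and centrosome, 0.308 for mitotic entry and exit and 0.356 for cytokinesis genes. The step at which the difference arose was not the same in the 2 groups of arrays. In siDicer cells the median passage 54 minus 47 difference was 0.053 (25 of 35 above 0, beside 54.7% of tested genes) and the median passage 56 minus 54 difference was 0.208 (35 of 35, beside 47.8%). In siScr cells the median passage 54 minus 47 difference was 0.286 (32 of 35, beside 51.4%) and the median passage 56 minus 54 difference was 0.057 (28 of 35, beside 50.9%). Most of the separation thus lay between passages 54 and 56 in siDicer and between passages 47 and 54 in siScr cells. That contrast of single arrays was not tested. It uses the same arrays as the within-passage differences above and is not a separate observation. From passage 47 to 56 as a whole the medians were 0.232 in siDicer (34 of 35, beside 48.5%) and 0.346 in siScr cells (35 of 35, beside 51.4%).

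Over both siRNAs, the median passage 54 minus 47 difference was 0.174 (30 of 35 above 0, beside 54.7% of tested genes) and that of passage 56 minus 54 was 0.148 (33 of 35, beside 49.4%). Condensin had the largest median passage 54 minus 47 difference, 0.456, against 0.168 for kinetochore and 0.149 for spindle genes. In siScr cells its median passage 56 minus 54 difference was -0.144, where spindle genes had 0.147 and kinetochore genes 0.045. With 3 condensin genes and 1 array per group and passage, this order was not tested.

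**Figure D5:**
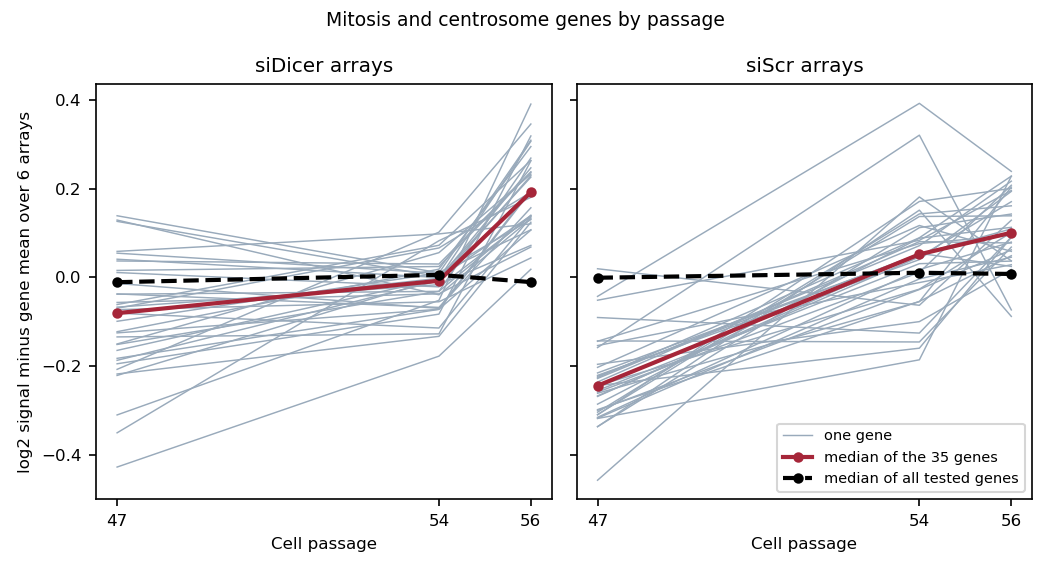
Deviation from each gene's own mean in log2 signal (y axis) by passage (x axis), with siDicer arrays in the left panel and siScr arrays in the right. Thin lines are single genes, the red line is the median of the 35 genes and the dashed line that of all tested genes; the median of the 35 on siDicer arrays was -0.081, -0.0079 and 0.192 and on the siScr arrays -0.245, 0.052 and 0.101 at passages 47, 54 and 56.

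Other genes of the same processes came from lists of mouse genes by function, limited to tested genes, all on chromosomes 1 to 4. They did not pass for the siRNA either. Of 6 other kinetochore, checkpoint and cohesion genes 2 were higher and 4 lower in siDicer, with a median of -0.025, and Pmf1, a Mis12 complex subunit, had 8.82 ± 0.11 in siDicer and 8.50 ± 0.17 in siScr cells (SD, n = 3). Its difference of 0.32 did not pass (limma, adjusted p = 0.397). Of 14 other spindle and cytokinesis genes 10 were higher and 4 lower, with a median of 0.078, and those with the smallest p-values were the dynactin subunit Dctn3 at -0.17 and the spindle protein Psrc1 at 0.25. Of 16 other centriole and centrosome genes 6 were higher and 10 lower, with a median of -0.022. Among them the centrosomal protein Cep170 had 8.58 ± 0.031 in siDicer and 8.94 ± 0.12 in siScr cells (SD, n = 3), a difference of -0.36 that did not pass (limma, adjusted p = 0.224, and 0.0747 with passage as a block). Of 13 other mitotic kinase, phosphatase and anaphase-promoting complex genes 8 were higher and 5 lower, with a median of 0.027, led by Ppp2r5a, a regulatory subunit of protein phosphatase 2A, at -0.21, and by Ensa, the inhibitor of that phosphatase that Mastl activates, at 0.20. The 2 other chromosome structure genes, Lbr and Lmna of the nuclear envelope, differed by 0.19 and 0.11. In each of these lists 0 genes passed, with or without the block, beside 1.73% and 0.0187% of all tested genes. Of all tested genes 45.5% were higher in siDicer.

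These lists also differed in how they stood between passages. The median passage 56 minus 47 difference was 0.168 for the other kinetochore genes (6 of 6 above 0), 0.055 for the other spindle genes (10 of 14), 0.0023 for the other centriole genes (8 of 16) and 0.059 for the other kinases and phosphatases (9 of 13). For genes of the G1/S transition and DNA replication it was 0.334 (16 of 16). Of all tested genes 49.7% were above 0. The siDicer minus siScr median of the replication genes was 0.257 with 14 of 16 above 0, beside 45.5% of all tested genes. For the siRNA, 0 of those 16 passed without the block, where 0.0187% of all tested genes did. With the block 1 passed, beside 1.73% of all tested genes. It was Dtl, a substrate receptor of a replication-linked ubiquitin ligase, which rose by 0.45 (limma with the block, adjusted p = 0.0301, and 0.429 without it). For passage, 1 of the 16 passed (limma F-test, adjusted p = 0.0492), beside 1.85% of all tested genes. The replication genes thus had the passage direction in common with the mitosis genes and the larger siRNA median, 0.257 against 0.055. The difference between the lists was not tested.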

How the data were processed

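RNA from 6 cultures was measured on Clariom D arrays. The authors deposited 1 log2 signal per transcript cluster and array. Expression Console is listed among the submitters' tools with no version, and how signals were summarised, normalised and centred is not given in the sources used here. The log2 scale was read from the values (1.70 to 13.70), and scanner files were not used here, so background could not be varied. The 16383 rows, 7715 of them with 1 gene, carry chromosome numbers 1 to 4. Gene symbols were updated through RefSeq (497 changed), and 1 row with 3 names, Hjurp among them, resolved to Hjurp.

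Dim genes, with a mean below the 30th percentile (log2 4.15), were dropped. The remaining 5361 were fitted with limma 3.58.1 in R 4.3.3 (lmFit, eBayes with trend), two-sided, with Benjamini-Hochberg adjustment over all of them and a threshold of 0.05. Passage was tested with an F-test in a model with the siRNA. The fit was run on simulated data with independent noise on each array. That simulation lacked the pairing by passage of these arrays, so it cannot show how the fit behaves with it. An exact permutation of 3 and 3 arrays cannot give a p below 0.1. Without the block, the p-values set the siRNA difference against the spread between these cultures of 1 line, passage included. With the block, and in the test for passage, that spread is how far the siDicer minus siScr difference varied between passages. No passage held a repeat culture with the same siRNA, so spread between cultures of the same passage was not measured. The labels tie each replicate number to 1 passage, so numbers pair the samples. Deviations of same-numbered arrays correlated at 0.417, 0.623 and 0.0702 for passages 47, 54 and 56. Between different passages the correlations ran from -0.538 to 0.285. The highest, siDicer at passage 47 with siScr at passage 56, was above the same-passage value of passage 56. The replicate block is an alternative, and the standard errors and intervals given for single genes are of the fit without it. Precision is limited by the number of arrays.

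The members, role groups and other lists were chosen with earlier results of these data known. Every member is named. Of the other lists up to 4 genes with the smallest p could be named, and of the markers the melanocyte genes and the lowest and highest of each other list. Alternatives were quantile normalisation, median centring, array weights, no variance trend, other filters, the mean of a gene's rows, the block and leaving out arrays or passages. Counts of members above 0 and of members at an unadjusted p were added after seeing the data, as were the passage 56 minus 47 values.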

Additional observations from a re-analysis of the deposited data

Results flagged for a closer look

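The median siDicer minus siScr difference changed sign between passages, as already given above. At passage 54 it was -0.079 over all 35 genes, where it was 0.147 at passage 47. By role group, it was -0.061 at passage 54 and 0.115 at passage 47 for kinetochore genes, -0.090 and 0.162 for spindle genes, and -0.079 and 0.250 for condensin. For centriole and centrosome genes it was -0.054 at passage 54 and 0.276 at passage 47, and for cytokinesis genes -0.145 and 0.146. Mitotic entry and exit genes did not show this, with 0.010 and 0.217. Each value rests on 1 array per group, so the difference between passages was not tested. Over all tested genes the medians were -0.0021 at passage 54 and -0.0048 at passage 47.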

How the results depend on the processing

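With passage as a replicate block, which the pairing by passage allows, 93 tested genes passed between siDicer and siScr, against 1 without it, and no member's call changed. Array weights gave 14, and leaving out arrays or passages gave 0 to 153 genes and 0 to 1 members, the 1 being Cenpe without passage 56. For passage, 99 genes passed, against 20 without the siRNA term, 202 after median centring, 165 with array weights, 58 with no filter and 172 with the 50th percentile filter. Leaving out arrays or passages gave 5 to 393 genes and 0 to 6 members, and median centring and the 50th percentile filter gave 3 members each. The range with arrays or passages left out was -0.029 to 0.128 for the kinetochore median and -0.086 to 0.179 for the cytokinesis median.

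Of the 35 members 16 kept their sign in every setting. With array weights the sign turned for Aspm (-0.023), Kif2c (-0.0070), Nusap1 (-0.022) and Smc4 (0.056). It turned for Aspm after quantile normalisation (-0.0030) and for Aurka after median centring (0.0035). With arrays or passages left out, sign changes gave ranges of -0.12 to 0.087 for Aurka, -0.15 to 0.14 for Aspm, -0.13 to 0.12 for Arhgap11a, -0.072 to 0.15 for Bub1, -0.058 to 0.15 for Ccna2, -0.036 to 0.20 for Cdc20, -0.094 to 0.031 for Cdca8, -0.21 to 0.061 for Cenpf, -0.054 to 0.11 for Ckap2l, -0.17 to 0.18 for Depdc1a, -0.16 to 0.059 for Kif14, -0.091 to 0.13 for Kif2c, -0.10 to 0.18 for Mastl, -0.062 to 0.10 for Nek2, -0.13 to 0.14 for Nusap1, -0.0016 to 0.19 for Oip5, -0.029 to 0.30 for Smc2, -0.22 to 0.10 for Smc4 and -0.19 to 0.038 for Tpx2. The causes were not tested. The differences of 31 of the 35 turned or moved by over 1.5 times without 1 array, and the exceptions were Cdc25b, Cenpe, Hjurp and Iqgap3. Without a scanner file, signal over background was not measured.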
